A study of Homo sapiens with 6 samples.

Results

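The genes that encode collagen chains, laminin chains, integrin subunits and the tissue inhibitors of metalloproteinases (TIMPs) were examined in SPT5-AID cells with ARMC5 knockdown. The members were the protein-coding genes of the GENCODE 44 annotation whose symbols name a collagen alpha chain, a laminin alpha, beta or gamma chain, an integrin alpha or beta subunit, or TIMP1 to TIMP4. These rules found 86 of 20046 protein-coding genes, of which 60 encode matrix proteins or their inhibitors (44 collagen chains, 12 laminin chains and 4 TIMPs) and 26 encode receptor subunits (18 integrin alpha and 8 integrin beta). Of the 86 members, 44 were among the 13737 genes tested, meaning that they had at least 10 estimated reads in at least 3 libraries. A further 30 had reads but fell under this filter, and 12 had no reads in any library.

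The 6 libraries were made from polyadenylated RNA of DLD-1 cells, a human colorectal adenocarcinoma line. Every library, controls included, carries the SPT5-AID genotype, in which the elongation factor SPT5 is fused to an auxin-inducible degron. After lentiviral infection and puromycin selection, the cells expressed a short hairpin RNA against ARMC5 (shARMC5, n = 3) or a nontargeting one (shNT, n = 3). ARMC5 is a substrate adaptor of the CUL3 ubiquitin ligase, and the comparison asks which genes differ in expression when it is depleted. No auxin is named in the labels of the libraries, and neither which of the study's ARMC5 hairpins was used nor whether the SPT5-AID line is 1 clone is given in the sources used here. The study counts the libraries of a group as biological replicates, but whether they come from separate cultures is not given in the sources used here, so P values measure the spread between these samples.

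Collagens are triple-helical proteins of the extracellular matrix, and laminins are cross-shaped trimers of an alpha, a beta and a gamma chain that form the basement membrane on which epithelia rest. Integrins are heterodimers of an alpha and a beta subunit that bind these proteins at the cell surface and connect them to the cytoskeleton. TIMPs inhibit the metalloproteinases that cut matrix proteins. In simple epithelia such as that of the colon, the integrin formed by the alpha 6 and beta 4 subunits binds laminins in hemidesmosomes, and fibrillar collagens are made mainly by fibroblasts.

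The number of reads assigned to transcripts in a library ranged from 26201112 to 40866478. Levels are given as TMM-normalized CPM, the reads of a gene scaled to the size of its library, for comparisons between groups, and as TPM, which also accounts for transcript length, for comparisons between genes. A gene is called higher or lower when its adjusted P value in edgeR's quasi-likelihood test over all 13737 genes is under 0.1, the threshold of the study. ARMC5 itself was at 10.8, 12.0 and 12.9 CPM in shARMC5 libraries and at 23.03, 25.9 and 26.7 CPM in shNT libraries. The groups did not overlap, with a log2 fold change of -1.09 (standard error, SE, 0.08, adjusted P = 5.3e-07) and an exact permutation P of 0.1, the smallest that 3 against 3 libraries allow. Of 11 matched markers of colorectal epithelium, EPCAM, a surface protein of epithelia, was at a mean of 1024 TPM and the intestinal transcription factor gene CDX2 at 120.1 TPM. Another 4 were under 1 TPM, namely CDX1 with no reads, CEACAM5 (0.157), GPA33 (0.156) and LGALS4 (0.613). Of the other markers examined, the fibroblast list summed to 4.15 to 6.04 TPM in shARMC5 and 4.94 to 5.75 TPM in shNT libraries. The leukocyte list summed to 2.65 to 3.13 and 1.48 to 3.62 TPM, and the endothelial list to 0.278 to 0.639 and 0.326 to 0.528 TPM, respectively. In bulk RNA, fewer cells of a type and less RNA per cell cannot be told apart.

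Of the 44 tested members, 13 were called higher in shARMC5 cells and none was called lower. Over all genes tested, 4.44% were called higher and 3.3% lower. Of the members not called, LAMA2, LAMB2 and ITGB4 had an unadjusted edgeR P under 0.05 with a positive fold change. COL18A1 and LAMA3 had one with a negative fold change. The share of all genes under this unadjusted threshold was not computed. DESeq2 without a length offset called LAMA3 lower (adjusted P = 0.0553). Among matrix genes, 8 of 28 tested members were called higher, among them COL13A1, COL17A1, LAMB1, LAMB3, TIMP1, TIMP2 and TIMP3. Among receptor genes, 5 of 16 were called higher, namely ITGA1, ITGA3, ITGA6, ITGB1 and ITGB5. The number of integrins called higher dropped to 3 when shARMC5 replicate 1, shARMC5 replicate 2, shNT replicate 1 or shNT replicate 3 was left out. In 15 tested members every shARMC5 library was above every shNT library, beside 12.5% of all genes, and these were the 13 called members, ITGB4 and ITGA9. The median log2 fold change was 0.10 over the tested members and -0.00 over all genes tested.

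The changes were small. Of the called members, COL13A1 and ITGA1 had log2 fold changes of 1.41 and 0.63 and the others lay between 0.09 and 0.35. The calls also depended on whether the average length of the transcripts of each gene entered the test. With this length offset, edgeR called 4 members higher (ITGB5, LAMB1, LAMB3 and TIMP2) and 1.01% of all genes. DESeq2 with the offset called 8 of the 32 members that received an adjusted P value, among them ITGA1, ITGA6, ITGB5, LAMB1, LAMB3, TIMP1 and TIMP2, beside 2.59% of the 11602 genes with an adjusted P value in that fit. ITGB5, LAMB1, LAMB3 and TIMP2 were called higher in all 16 alternative fits.

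**Figure D1:**
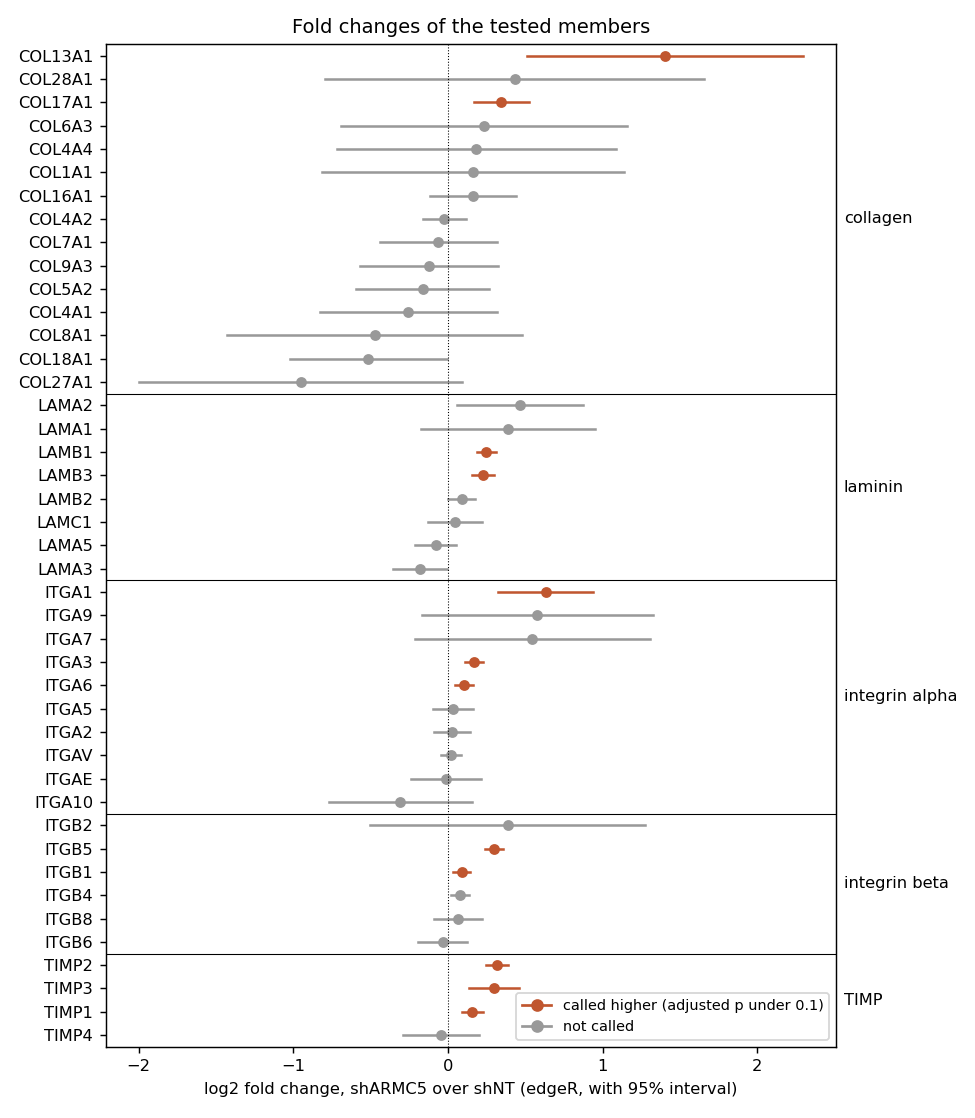
Log2 fold change of shARMC5 over shNT (x axis) for the tested members (y axis, 43 shown), grouped by class, with the 95% interval from edgeR. The 12 orange members were called higher at an adjusted P value under 0.1. All intervals of members called higher lie to the right of 0, and those of low-count collagens are widest.

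Collagen mRNA was scarce. Of the 44 collagen genes, 11 had no reads in any library, 18 fell under the filter with at most 31 reads, and 15 were tested. The 2 chains of type I collagen, the main fibrillar collagen of connective tissue, had 8 to 12 reads (COL1A1) and 0 to 3 reads (COL1A2) per library. COL3A1 and COL5A1, which encode chains of other fibrillar collagens, had no reads, which allows up to 3 counts or 0.0757 to 0.118 CPM per library. COL5A2, the partner chain of COL5A1, had 60 to 102 reads and a log2 fold change of -0.16 (SE 0.20). Of the chains of type VI collagen, which forms beaded filaments, COL6A2 had no reads, COL6A1 had 1 to 14 and COL6A3 had 7 to 19 reads per library. All of these genes were below 1 TPM on average.

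COL17A1 encodes a transmembrane collagen of hemidesmosomes and was the collagen with the highest TPM among those read mainly from protein-coding transcripts. It lies at chr10:104031286-104085880 on the minus strand of GRCh38. COL17A1 was at 12.8, 12.3 and 13.96 CPM in shARMC5 libraries and at 10.2, 10.1 and 10.3 CPM in shNT libraries. The groups did not overlap on this scale, and the log2 fold change was 0.35 (SE 0.08, adjusted P = 0.0246). Per length the groups overlapped, with 4.63 ± 0.60 TPM in shARMC5 and 4.43 ± 1.15 TPM in shNT cells (SD, n = 3). With the length offset the log2 fold change of COL17A1 was 0.09 (SE 0.20, adjusted P = 0.904 in edgeR), and without shARMC5 replicate 3 the adjusted P value was 0.113.

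COL13A1 encodes another transmembrane collagen, found at cell adhesions, at chr10:69801880-69964275 on the plus strand. It had 20, 31 and 15 reads in shARMC5 libraries and 11, 8 and 5 reads in shNT libraries. Its log2 fold change of 1.41 (SE 0.42, adjusted P = 0.0672) was the largest among the called members and rested on the fewest reads. The call was lost when shARMC5 replicate 1 or 2 or shNT replicate 2 or 3 was left out (adjusted P between 0.111 and 0.215), and with the length offset in edgeR the log2 fold change was 0.90 (adjusted P = 0.509). DESeq2 with the offset gave COL13A1 no adjusted P value.

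Among the collagens that were not called, COL4A2 had the highest TPM. It encodes the alpha 2 chain of type IV collagen, the network-forming collagen of basement membranes, and is normally made together with the alpha 1 chain encoded by the neighbouring COL4A1. The canonical start sites of both genes lie 127 bases apart on chromosome 13 and point in opposite directions. The promoter window of COL4A1, from the RefSeq annotation of GRCh38.p14 at chr13:110307108-110307407 on the minus strand, is shown because it also covers the canonical start of COL4A2. Capitals mark matches to the GC box GGGCGG on either strand.
COL4A1: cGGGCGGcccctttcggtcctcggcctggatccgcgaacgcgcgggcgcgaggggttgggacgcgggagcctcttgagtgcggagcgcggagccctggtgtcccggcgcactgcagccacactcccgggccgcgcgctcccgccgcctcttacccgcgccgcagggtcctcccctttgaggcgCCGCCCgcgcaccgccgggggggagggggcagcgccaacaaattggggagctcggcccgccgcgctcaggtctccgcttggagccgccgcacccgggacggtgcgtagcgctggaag

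COL4A2 was at 22.6, 23.3 and 24.4 CPM in shARMC5 libraries and at 23.3, 25.5 and 22.5 CPM in shNT libraries, which overlapped. COL4A1 had only 32 to 71 reads per library, and its mean level was 0.467 TPM beside 33.2 TPM for COL4A2. Most COL4A2 reads were not assigned to transcripts that encode the chain. The retained-intron transcript COL4A2-212, of 1663 bases, held 56.4% of them and begins 204081 bases downstream of the start in the promoter window. Protein-coding transcripts held 7.47% and the canonical transcript COL4A2-201 held 2.18%, at 0.116 TPM. The level of COL4A2 as a sum over transcripts thus cannot be set beside that of COL4A1 as a level of chain-encoding mRNA.

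The same was seen in the other collagens over 1 TPM apart from COL17A1. COL9A3, a chain of the cartilage collagen type IX, had no reads on protein-coding transcripts. COL16A1, a fibril-associated collagen, had 38.0% of its reads there, and COL7A1, the anchoring-fibril collagen of epithelial basement membranes, had 28.9%. None of these was called, with log2 fold changes of -0.12 (COL9A3), 0.16 (COL16A1) and -0.06 (COL7A1). In all, 7 of the 15 tested collagens had under 50% of their reads on protein-coding transcripts, beside 1 of 9 laminins, 2 of 10 integrin alpha, none of 6 integrin beta genes and none of the 4 TIMPs.

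**Figure D2:**
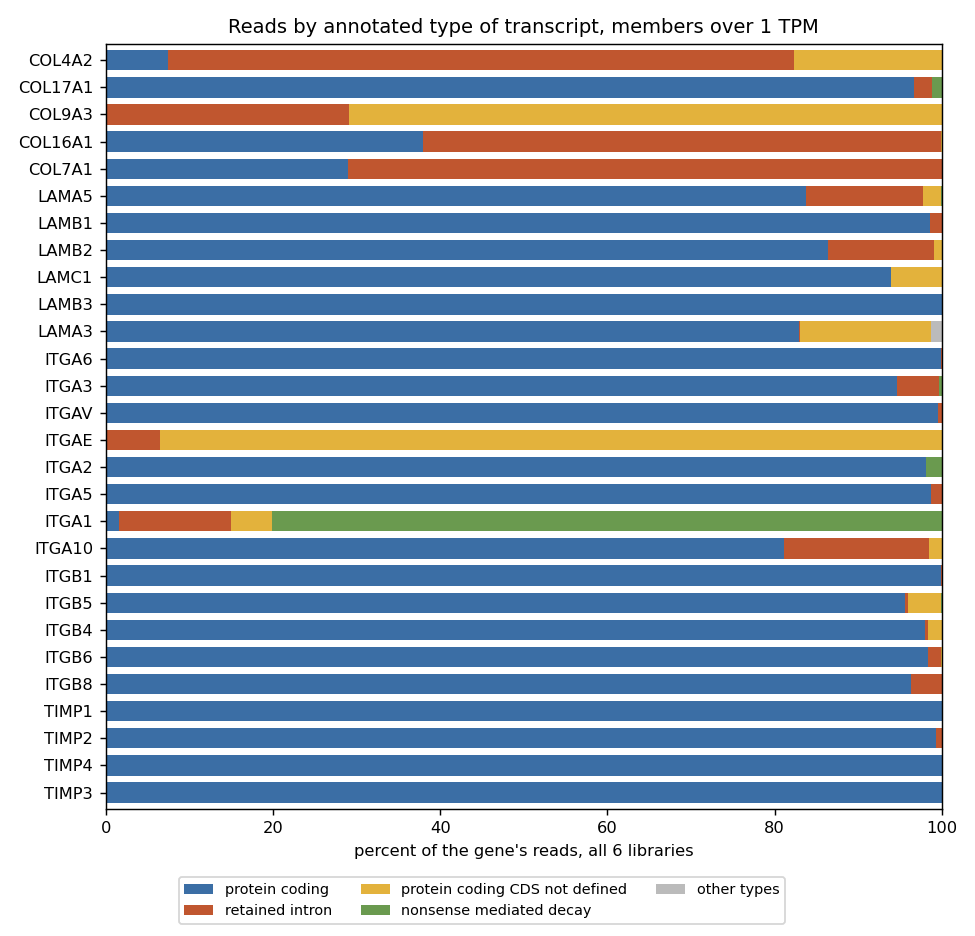
Percent of each gene's reads over all 6 libraries (x axis) by the annotated type of the transcript to which they were assigned, for 28 tested members with a mean over 1 TPM (y axis). COL4A2, COL9A3, COL16A1, COL7A1, ITGAE and ITGA1 have under 50% of their reads on protein-coding transcripts (blue).

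Other collagens of basement membranes were low. COL18A1, whose chain is the source of endostatin, was at 1.35, 1.42 and 1.43 CPM in shARMC5 libraries and at 2.42, 1.67 and 1.93 CPM in shNT libraries. Each shARMC5 library was below each shNT library, but the gene was not called (log2 fold change -0.52, SE 0.24, adjusted P = 0.268). COL4A3 and COL4A6 had no reads, COL4A4 had 9 to 20 and COL4A5 had 0 to 3 reads per library. The median log2 fold change of the 15 tested collagens was -0.02, and 7 of the 15 were positive.

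Laminin mRNAs were more abundant, with 280.04 to 327 TPM summed over the 12 genes in a library, beside 51.8 to 57.0 TPM for the 44 collagens. Over all transcripts the mean level was 83.4 TPM for LAMA5, 65.6 for LAMB1, 58.0 for LAMB2, 36.3 for LAMC1, 35.9 for LAMB3 and 18.0 for LAMA3. The order depended on the transcripts included, since over protein-coding transcripts alone LAMB1 was at 57.3 TPM, LAMB3 at 35.9, LAMB2 at 24.3, LAMA5 at 19.3, LAMC1 at 18.9 and LAMA3 at 12.8. The chains LAMA5, LAMB1 or LAMB2, and LAMC1 make up laminin-511 and laminin-521. LAMA1 and LAMA2, alpha chains of other laminins, were below 1 TPM, and LAMA4, LAMB4 and LAMC3 fell under the filter with at most 11 reads.

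LAMB1 and LAMB3 were among the laminin genes called higher. The promoter windows of LAMB1 and LAMB3 around the start of their leading transcript, from 250 bases before to 50 bases after it, are shown because these genes kept their call in all 16 alternative fits. They lie on the minus strand at chr7:108003112-108003411 and at chr1:209652376-209652675, and capitals mark GC boxes on either strand.
LAMB1: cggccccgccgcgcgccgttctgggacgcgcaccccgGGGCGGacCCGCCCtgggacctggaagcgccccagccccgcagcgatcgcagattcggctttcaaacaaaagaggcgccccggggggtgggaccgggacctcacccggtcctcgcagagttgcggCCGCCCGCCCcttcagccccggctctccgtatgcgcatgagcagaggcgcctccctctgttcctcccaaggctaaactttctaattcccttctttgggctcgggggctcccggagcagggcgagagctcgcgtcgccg
LAMB3: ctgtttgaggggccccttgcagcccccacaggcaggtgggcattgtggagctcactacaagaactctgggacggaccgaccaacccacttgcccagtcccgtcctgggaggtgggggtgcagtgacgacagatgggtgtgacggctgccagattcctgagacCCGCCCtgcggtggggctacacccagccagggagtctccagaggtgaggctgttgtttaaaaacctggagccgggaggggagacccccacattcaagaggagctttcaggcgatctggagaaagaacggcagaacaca

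LAMB1 encodes the beta 1 chain and lies at chr7:107923799-108003213. It was at 237, 238 and 226 CPM in shARMC5 libraries and at 198, 199 and 193 CPM in shNT libraries. The groups were well apart, with a log2 fold change of 0.25 (SE 0.03, adjusted P = 6.6e-05), and with the length offset the value was 0.34 (adjusted P = 0.0357 in edgeR). The transcript LAMB1-201 held 97.1% of its reads. The last 7932 bases of LAMB1 overlap DLD, a gene of the opposite strand at 110 TPM, and no source states whether the quantification used strand. DLD itself showed a log2 fold change of -0.02 (adjusted P = 0.837).

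LAMB3 encodes the beta 3 chain and lies at chr1:209614870-209652425. It was at 104, 102 and 106 CPM in shARMC5 libraries and at 90.1, 87.2 and 89.4 CPM in shNT libraries. The lowest shARMC5 library was above the highest shNT library, and the log2 fold change was 0.23 (SE 0.03, adjusted P = 0.00069). With the length offset the value was 0.22 (adjusted P = 0.0624 in edgeR), and LAMB3-201 held 97.1% of the reads.

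LAMA3 encodes the alpha 3 chain, which assembles with the beta 3 chain, and did not pass the test. It was at 87.1, 85.7 and 73.8 CPM in shARMC5 libraries and at 98.6, 87.7 and 94.0 CPM in shNT libraries. The 2 groups came close, with a gap between 87.1 and 87.7 CPM, and the log2 fold change was -0.18 (SE 0.07, adjusted P = 0.256). LAMA3 was called lower by DESeq2 without the offset (adjusted P = 0.0553) and when all genes with at least 1 count were tested in edgeR (adjusted P = 0.000224).

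The chains LAMA5, LAMB2 and LAMC1 were not called. LAMA5 was at 159 to 169 CPM in shARMC5 and 158 to 184 CPM in shNT libraries (log2 fold change -0.08, SE 0.06). Its groups overlapped, although without shNT replicate 2 its log2 fold change was -0.14 and it was called lower (adjusted P = 0.0292). LAMB2 (log2 fold change 0.09, SE 0.04, adjusted P = 0.263) and LAMC1 (0.05, SE 0.07) overlapped between groups too, although LAMB2 was called higher with a term for the replicate number (adjusted P = 0.0703). LAMA2 showed a log2 fold change of 0.47 (SE 0.19, adjusted P = 0.205) with 75 to 143 reads per library.

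The TIMPs included the member with the highest TPM, TIMP1, at a mean of 255 TPM or 80.5% of the summed TPM of this class. TIMP1 was at 122, 123 and 121 CPM in shARMC5 libraries and at 108, 112 and 108 CPM in shNT libraries. TIMP2, which inhibits metalloproteinases and also takes part in the activation of MMP2 at the cell surface, was at 120, 116 and 116 CPM in shARMC5 libraries and at 95.2, 92.1 and 95.4 CPM in shNT libraries. Neither gene overlapped between groups. The log2 fold change was 0.16 for TIMP1 (SE 0.03, adjusted P = 0.00666) and 0.32 for TIMP2 (SE 0.03, adjusted P = 2.4e-05). TIMP1 lies at chrX:47582408-47586789 and TIMP2 at chr17:78852977-78925387. With the length offset in edgeR, TIMP1 missed the threshold (log2 fold change 0.15, adjusted P = 0.124).

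TIMP3, an inhibitor that binds to the matrix, was at 31.2, 26.6 and 33.3 CPM in shARMC5 libraries and at 25.4, 23.8 and 24.7 CPM in shNT libraries. Replicate 2 of shARMC5 was the closest to the shNT libraries but still above each of them. The log2 fold change was 0.30 (SE 0.07, adjusted P = 0.0316), and the call was lost when replicate 1 or 3 of shARMC5 or replicate 2 of shNT was left out (adjusted P between 0.102 and 0.119) and with the length offset in both tools. With the offset the log2 fold change of TIMP3 stayed at 0.30 in both tools (SE 0.09 in edgeR). TIMP3 lies at chr22:32801705-32863041 within SYN3, an opposite-strand gene that had no reads. TIMP4 overlapped between groups at 6.30 to 7.61 and 6.88 to 7.68 CPM (log2 fold change -0.04, SE 0.12).

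**Figure D3:**
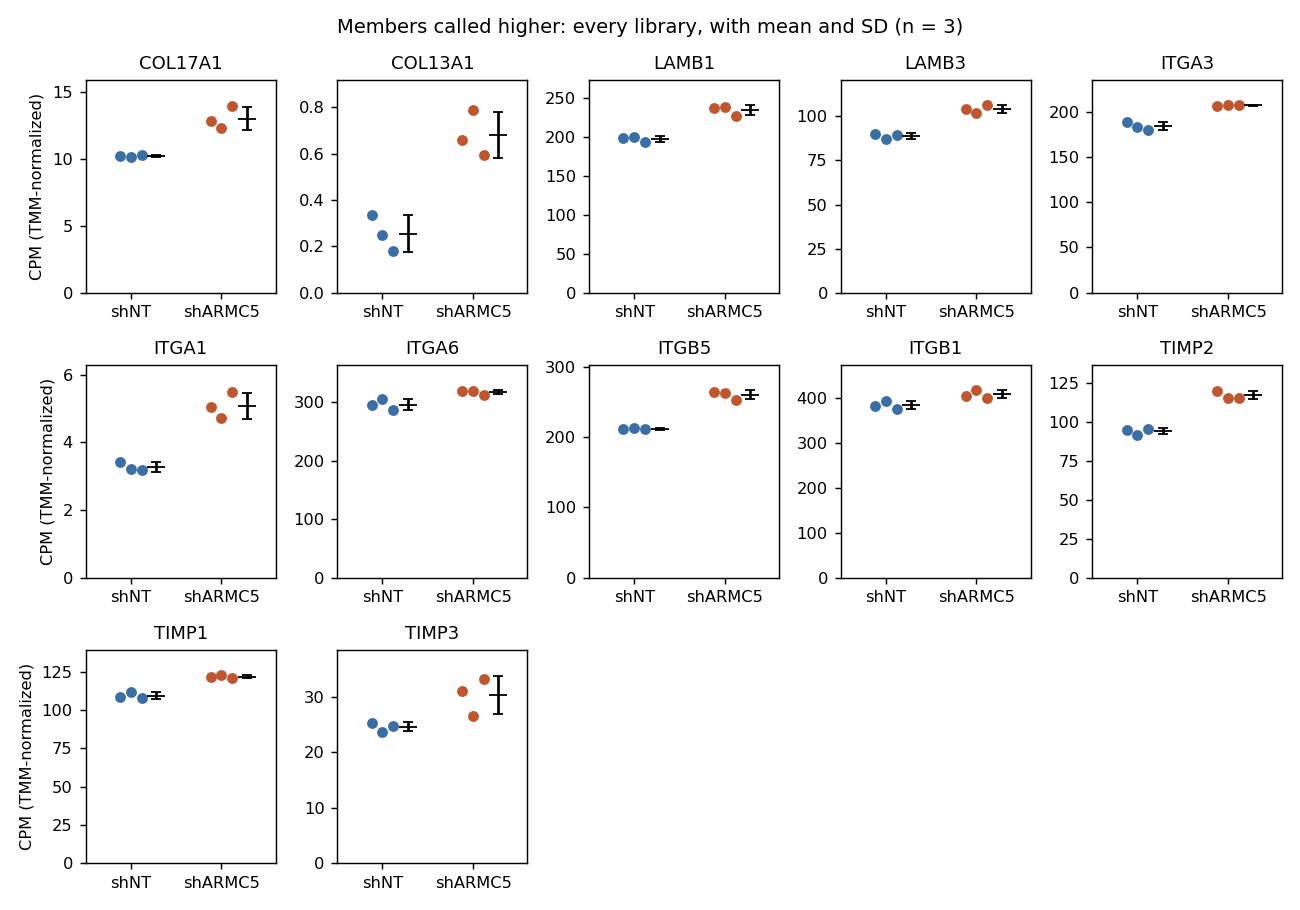
TMM-normalized CPM (y axes, each from 0) of 12 members called higher in every shNT (blue) and shARMC5 (orange) library, with the mean and SD of the 3 libraries in black. Every shARMC5 library lies above every shNT library in each panel, and the distance is a small part of the level in all but COL13A1 and ITGA1.

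Among receptors, integrin alpha genes summed to 246 to 271 TPM per library. ITGA6, whose product pairs with the beta 4 subunit in hemidesmosomes and also with beta 1, had the highest mean level (85.2 TPM), followed by ITGA3 (67.6), which binds laminins with beta 1. ITGAV, which pairs with several beta subunits, was at 56.5 TPM, ITGA2, a collagen receptor subunit, at 10.3 TPM and ITGA5, the fibronectin receptor subunit, at 9.73 TPM. ITGA4 had no reads, and 7 others fell under the filter with at most 16 reads, including the leukocyte subunits ITGAL, ITGAM, ITGAX and ITGAD.

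ITGA3, at chr17:50055968-50090481, was at 206, 207 and 208 CPM in shARMC5 libraries and at 189, 184 and 180 CPM in shNT libraries. Its groups were apart, and the log2 fold change was 0.17 (SE 0.03, adjusted P = 0.00148). The length offset reduced it to 0.10 (SE 0.05, adjusted P = 0.457 in edgeR and 0.452 in DESeq2). ITGA6, at chr2:172427354-172506459, was at 320, 319 and 312 CPM in shARMC5 libraries and at 295, 305 and 287 CPM in shNT libraries, and did not overlap either. Its log2 fold change was 0.10 (SE 0.03, adjusted P = 0.0464). That call was lost without shARMC5 replicate 1, shARMC5 replicate 2, shNT replicate 1 or shNT replicate 3 (adjusted P between 0.107 and 0.209). The transcripts ITGA6-201 and ITGA6-202 held 71.8% and 27.4% of the ITGA6 reads.

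ITGA1, which encodes a collagen receptor subunit and lies at chr5:52787916-52959209, was at 5.05, 4.72 and 5.47 CPM in shARMC5 libraries and at 3.43, 3.21 and 3.18 CPM in shNT libraries. The groups did not overlap in CPM, with a log2 fold change of 0.63 (SE 0.14, adjusted P = 0.0177). In TPM they overlapped, at 1.23 to 2.11 in shARMC5 and 0.635 to 1.38 in shNT libraries. With the length offset the log2 fold change of ITGA1 was 1.05 (SE 0.33), which was not called in edgeR (adjusted P = 0.24) and was called in DESeq2 (0.0592). Only 1.56% of its reads were on protein-coding transcripts, and 80.1% were on ITGA1-208, which is annotated as a target of nonsense-mediated decay. The gene overlaps PELO on the same strand over 16129 bases, and PELO, which encodes a ribosome rescue factor, was at 17.9 TPM with a log2 fold change of 0.14 (adjusted P = 0.115). Reads of the shared stretch are divided between these genes by estimation, so the value of ITGA1 is uncertain, and the part of PELO reads in it was not tested.

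Of the other alpha subunits tested, ITGA9, with 14 to 35 reads per library, did not overlap between groups in CPM but was not called (log2 fold change 0.58, SE 0.35, adjusted P = 0.421), and the rest overlapped. In TPM the groups overlapped for ITGA9 as well, and with the length offset its log2 fold change was 0.02 (SE 0.51, adjusted P = 0.994 in edgeR). ITGAV was at 210 to 218 CPM in shARMC5 and 205 to 221 CPM in shNT libraries (log2 fold change 0.02, 95% interval -0.05 to 0.09). ITGA2 (0.03, interval -0.09 to 0.14) and ITGA5 (0.03, interval -0.09 to 0.16) gave intervals that include 0. ITGAE, at 27.5 TPM, had no reads on protein-coding transcripts, and 81.0% were on ITGAE-207, a transcript of 672 bases with no defined coding sequence.

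Integrin beta genes summed to 406 to 484 TPM per library. ITGB1, the common beta subunit of collagen, laminin and fibronectin receptors, made up 39.5% of this sum (177 TPM), ITGB5 37.4% (169 TPM) and ITGB4 20.6% (92.2 TPM). ITGB6 and ITGB8, which pair with alpha v, were at 5.32 and 4.33 TPM. ITGB3 had 0 to 7 reads per library and ITGB2, the leukocyte beta subunit, had 10 to 27.

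ITGB5 and ITGB1 were called higher. The promoter windows at the starts of their leading transcripts are shown because ITGB5 had the smallest adjusted P value among the members and the ITGB1 window holds the only TEAD core (GGAATG) in the windows of called members. They lie on the minus strand at chr3:124887316-124887615 and chr10:32958181-32958480. Capitals mark GC boxes on either strand and, in ITGB1, the TEAD core.
ITGB5: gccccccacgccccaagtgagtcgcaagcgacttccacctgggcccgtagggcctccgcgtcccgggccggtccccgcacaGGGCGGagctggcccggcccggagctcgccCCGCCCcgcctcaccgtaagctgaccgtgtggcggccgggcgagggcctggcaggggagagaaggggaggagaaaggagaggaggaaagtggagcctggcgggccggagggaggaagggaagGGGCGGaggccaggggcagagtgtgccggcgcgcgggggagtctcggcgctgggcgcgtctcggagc
ITGB1: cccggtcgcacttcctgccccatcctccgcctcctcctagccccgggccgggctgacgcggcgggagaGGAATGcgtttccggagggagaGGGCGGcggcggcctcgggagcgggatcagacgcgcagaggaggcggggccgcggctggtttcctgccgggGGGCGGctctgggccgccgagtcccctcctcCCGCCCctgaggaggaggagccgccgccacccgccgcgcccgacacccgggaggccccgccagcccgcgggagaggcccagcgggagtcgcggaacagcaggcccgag

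ITGB5, which pairs with alpha v to bind vitronectin and lies at chr3:124761948-124901418, was at 264, 263 and 253 CPM in shARMC5 libraries and at 211, 213 and 211 CPM in shNT libraries. The groups were separated by more than the range within either, and the log2 fold change was 0.30 (SE 0.03, adjusted P = 5.3e-06). Per length, the level was 188 ± 10.8 TPM in shARMC5 and 149 ± 6.89 TPM in shNT cells (SD, n = 3), and with the length offset the log2 fold change was 0.35 (adjusted P = 0.00534 in edgeR). ITGB5-201 held 75.8% of the reads.

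ITGB1, at chr10:32887273-33005792, was at 406, 420 and 402 CPM in shARMC5 libraries and at 383, 395 and 377 CPM in shNT libraries. These values did not overlap but lay close, with a log2 fold change of 0.09 (SE 0.03, adjusted P = 0.0774). The ITGB1 call was lost with the length offset in both tools, with library size as the only scaling, without robust fitting (adjusted P = 0.142), and without shARMC5 replicate 1, shARMC5 replicate 2, shNT replicate 1 or shNT replicate 3 (adjusted P between 0.105 and 0.304 for the libraries left out).

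ITGB4, the laminin-binding partner of alpha 6, was at 310, 306 and 292 CPM in shARMC5 libraries and at 291, 285 and 286 CPM in shNT libraries. The groups did not overlap, but the gene was not called (log2 fold change 0.08, SE 0.03, adjusted P = 0.146). ITGB4 was called higher without shARMC5 replicate 3 (adjusted P = 0.0674) and with a term for the replicate number (adjusted P = 0.0406). With the length offset, however, the log2 fold change of ITGB4 was 0.003 (adjusted P = 0.985 in edgeR and 0.996 in DESeq2). ITGB6 (log2 fold change -0.03, 95% interval -0.19 to 0.13) and ITGB8 (0.06, interval -0.09 to 0.22) overlapped between groups.

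**Figure D4:**
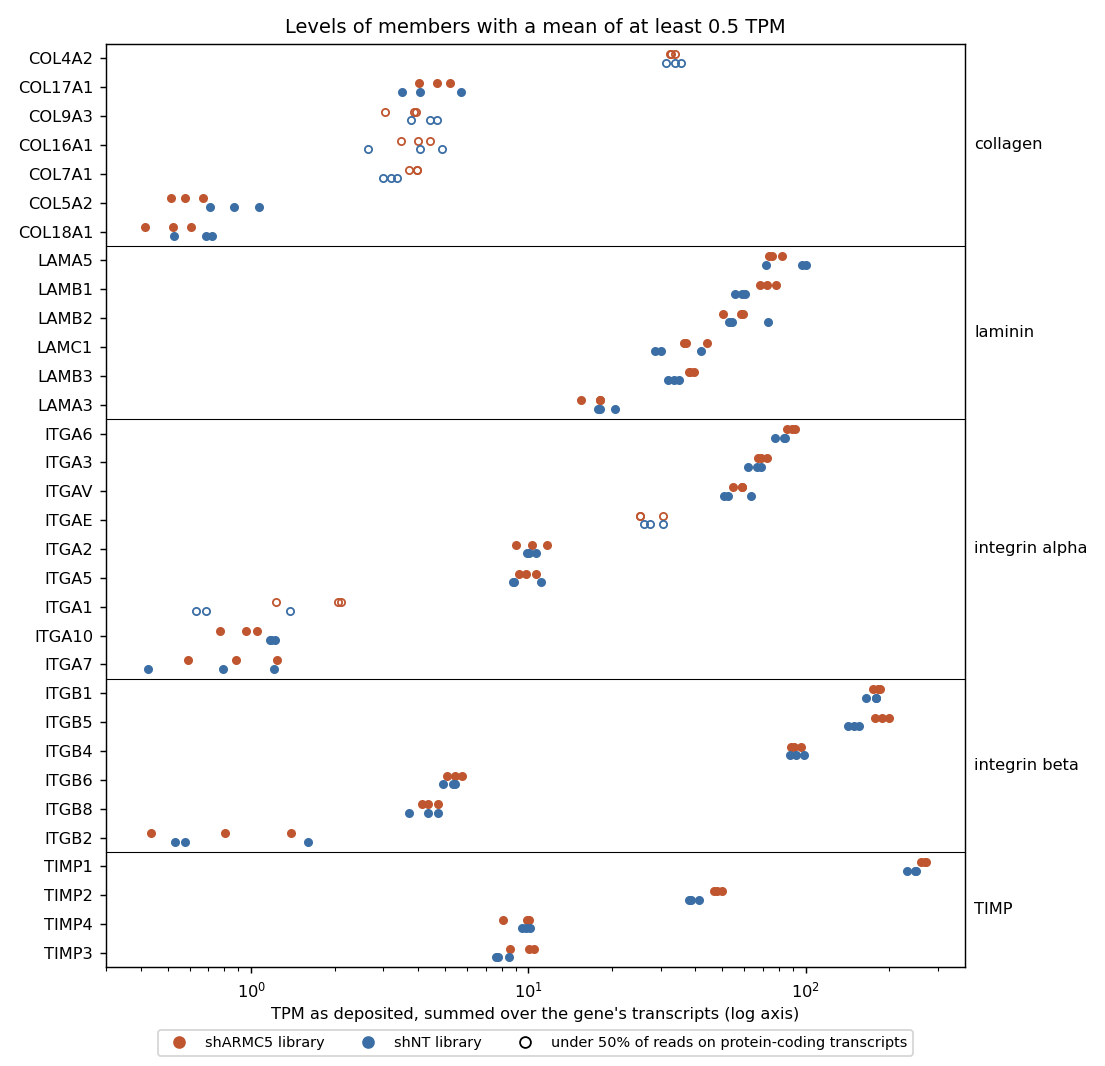
TPM of every library (x axis, log scale) for 32 members with a mean of at least 0.5 TPM, grouped by class (y axis), in shARMC5 (orange) and shNT (blue). Open circles mark genes with under 50% of their reads on protein-coding transcripts, among them COL4A2, the collagen with the highest TPM. TIMP1, ITGB1 and ITGB5 are the members with the highest levels.

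**Figure D5:**
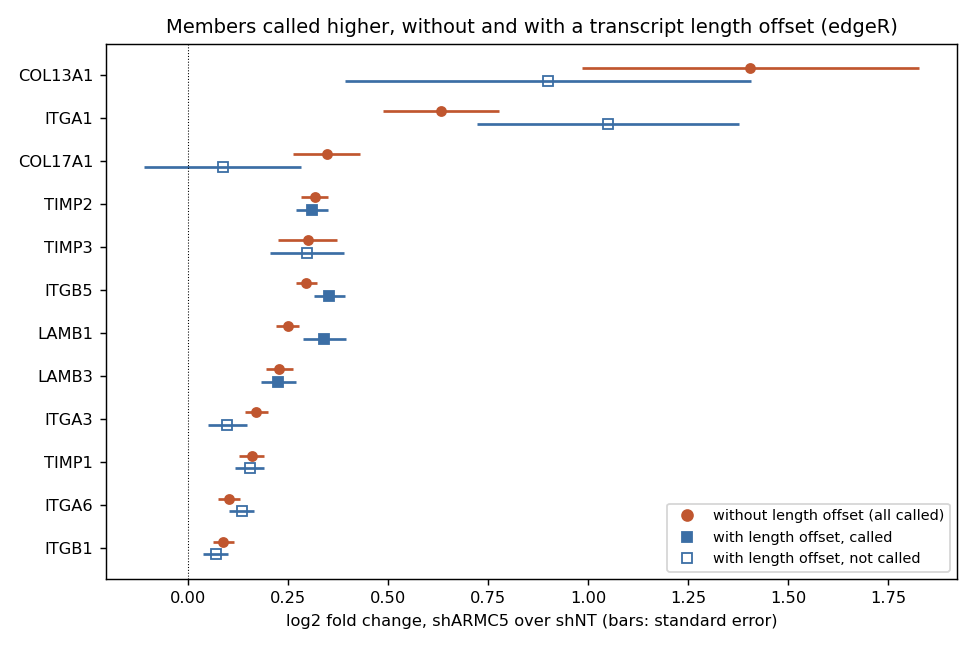
Log2 fold change with its SE (x axis) of 12 called members (y axis) in edgeR without (circles) and with (squares) an offset for the average transcript length. Filled squares mark ITGB5, LAMB1, LAMB3 and TIMP2, which were also called with the offset, and COL17A1 shows the drop from 0.35 to 0.09.

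RefSeq promoter windows of 300 bases were available for 61 members, 10 of them among the 13 called. The windows of called members (16, since some genes have several) were searched on both strands for the GC box GGGCGG, the TEAD core GGAATG and the AP-1 site TGANTCA. The GC box was in 12 of 16 windows (75%), beside 62.5% of the 24 windows of the other tested members and 45.0% of all 35116 windows. Some windows of the same gene overlap. Counted per gene, the GC box was in 7 of 10 called members, 14 of 22 other tested members and 13189 of all 27305 genes with windows. The TEAD core was in 1 of 16 (6.25%), beside 12.5% and 14.03%. The AP-1 site was in 1 of 16 (6.25%), beside 8.33% and 7.71%. That AP-1 match was in a LAMB3 window 1051 bases from the start of the leading transcript. These matches describe letters in the windows and do not show binding.

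Genes that act with these proteins were examined as lists. Of enzymes and chaperones that process collagen, 25 of 31 were tested, 3 were called higher and none lower, beside 4.44% higher and 3.3% lower over all genes tested. The called genes were P3H2, a prolyl 3-hydroxylase (log2 fold change 0.71, SE 0.12), CRTAP, a partner of prolyl 3-hydroxylase 1 (0.14, SE 0.03), and COLGALT1, a collagen galactosyltransferase (0.10, SE 0.03). None of these 3 was called with the length offset in either tool, and COLGALT1 also lost its call when replicate 1 or 3 of shARMC5 or replicate 1 of shNT was left out (adjusted P between 0.101 and 0.165). With the offset in edgeR the log2 fold change stayed at 0.71 for P3H2 and 0.10 for COLGALT1 and was 0.07 for CRTAP. The list's median log2 fold change was 0.06.

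Of other basement membrane and matrix glycoproteins, 16 of 35 were tested, 2 were called higher and 3 lower, beside the same 4.44% and 3.3% of all genes, with a median log2 fold change of 0.00. NPNT, the integrin ligand nephronectin, fell by 0.33 on the log2 scale (SE 0.05, adjusted P = 0.000523) and was called lower in all 16 alternative fits. HSPG2, which encodes perlecan, showed a log2 fold change of -0.60 (SE 0.14, adjusted P = 0.09) that was -0.28 with the length offset, and TNC, which encodes tenascin-C, -0.28 (SE 0.08, adjusted P = 0.0491). AGRN, which encodes the heparan sulfate proteoglycan agrin, was at 0.09 (SE 0.03, adjusted P = 0.0507), and MATN3, a matrilin with 16 to 49 reads, at 1.06 (SE 0.32, adjusted P = 0.0663). These 4 calls were lost with the length offset in edgeR and when any of 4 or 5 of the 6 libraries was left out. With the offset in edgeR the log2 fold change was -0.36 for TNC, 0.08 for AGRN and 1.09 for MATN3.

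Of receptors for collagen and laminin other than integrins, 15 of 18 were tested, 4 were called higher (4.44% of all genes) and none lower (3.3%), and the median log2 fold change was 0.03. DDR1, a collagen-binding receptor tyrosine kinase, showed a log2 fold change of 0.80 (SE 0.12, adjusted P = 0.0286), and 0.48 with the length offset (adjusted P = 0.0384 in edgeR). It missed the threshold without shNT replicate 1 (adjusted P = 0.137). SDC4 and GPC1, cell-surface heparan sulfate proteoglycans, were at 0.20 and 0.15, and CD81, a tetraspanin, was at 0.10, and CD81 lost its call without shARMC5 replicate 1, shARMC5 replicate 3, shNT replicate 1 or shNT replicate 3 (adjusted P between 0.11 and 0.174). SDC4, GPC1 and CD81 were not called with the length offset in edgeR, where their log2 fold changes were 0.20, 0.15 and 0.12. With the offset in DESeq2, SDC4 (adjusted P = 0.0661) and CD81 (0.00937) were called and GPC1 (0.141) was not. Of matrix proteases, 11 of 29 were tested, 1 was called higher (4.44% of all genes) and none lower (3.3%). Their median log2 fold change was -0.04. The called gene was ADAM9 (log2 fold change 0.13, SE 0.03, adjusted P = 0.0153). With the length offset its adjusted P value was 0.137 in edgeR and 0.0218 in DESeq2. The log2 fold change of ADAM9 with the offset in edgeR was also 0.13.

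Among epithelial markers, 3 of 7 tested genes were called higher and 1 lower, where 4.44% and 3.3% of all genes were. The keratins KRT8 (log2 fold change 0.18), KRT18 (0.25) and KRT19 (0.11), intermediate filament proteins of simple epithelia, were called higher, and VIL1, which encodes the microvillus protein villin, was called lower (-1.30, SE 0.11). Their summed TPM was 8532 to 8831 in shARMC5 and 7535 to 8053 in shNT libraries, which moves in the same direction as the called members, and its part in their result was not tested. EPCAM (log2 fold change 0.03) and CDH1 (0.00), which encodes E-cadherin, were not called. KRT19 lost its call with the length offset in edgeR (adjusted P = 0.124), where its log2 fold change was 0.10, but kept it in DESeq2 (0.00631). None of the 3 tested fibroblast markers, 4 leukocyte markers, 1 endothelial marker and 1 platelet marker was called. The defining fibroblast genes LUM, POSTN and THY1 had no reads, and PTPRC, the general leukocyte marker CD45, had at most 1. The platelet list summed to 15.2 to 17.0 TPM in shARMC5 and 13.0 to 14.1 TPM in shNT libraries, nearly all of it from the chemokine gene PF4 (mean of 14.9 TPM, log2 fold change 0.27, adjusted P = 0.314).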

How the data were processed

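RNA-seq data of 6 libraries were used. According to the study's methods, reads were trimmed with cutadapt 4.2 and quantified with Salmon 1.9.0 with GC-bias correction. The submitters' processing notes name the build hg38, and the transcript set is not given in the sources used here. For each transcript the authors deposited estimated counts of reads without normalization between libraries. The deposited TPM values were computed within each library from these counts and the effective lengths of transcripts, which were deposited as well.

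Of 177456 transcripts, 165533 were matched by identifier without version to GENCODE 44, and the others held 2.96 to 3.04% of reads. Counts were summed per gene and rounded. Differential expression was tested in edgeR 4.0.16 under R 4.3.3 by its robust quasi-likelihood F test (TMM factors 0.992 to 1.02) with condition as the only term and Benjamini-Hochberg adjustment. The study used DESeq2 on summarized transcripts, and DESeq2 1.42.0 without and with a transcript length offset was an alternative. Permutation tests were exact and two-sided (scipy 1.17.1). Tested on simulated data, edgeR recovered 81.5% of the 200 genes, among 13737, given a log2 change of 1. Smaller changes, such as those of most called members, were not simulated, so this share does not apply to them. Counting error limits genes with few reads. Intervals come from the edgeR fit and include the spread between libraries, and floors of 3 counts cover counting error only.

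The genes named are ARMC5, every called member, the 5 members of each class with the highest TPM, chains that assemble together, members under the filter by count, and at most 5 called genes each way of a list. COL18A1, LAMA2, ITGA9 and the genes that overlap members were chosen for naming once their values had been seen. One member is not reported here and is not drawn, though counts over all members include it. The members and lists were chosen with earlier results of these data known. Alternatives were other scaling, length offsets, DESeq2, other filters, a term for the replicate number, fits without robust estimation, unmatched transcripts added to the gene listed before them, an adjusted P value under 0.05 and each library left out in turn.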

Additional observations from a re-analysis of the deposited data

How the results depend on the processing

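Against 13 members called higher (8 matrix, 5 integrin), edgeR with the transcript length offset called 4 (3 matrix, 1 integrin) and DESeq2 with the offset called 8 (5 matrix, 3 integrin). With library size as the only scaling 3 integrins were called higher, and leaving out 1 library gave 3 to 6. No member was called lower among the 13737 genes in edgeR, whereas DESeq2 and edgeR over all genes with at least 1 count called 1 each (LAMA3), and leaving out 1 library in edgeR gave 0 to 1 (LAMA5, without shNT replicate 2). Over all genes, 610 were called higher and 454 lower, beside 139 and 96 with the length offset in edgeR and 300 and 268 with it in DESeq2. Fits with 1 library left out called 351 to 625 genes higher and 185 to 460 lower, so the shares of all genes called also depend on the libraries. With the offset in edgeR and in DESeq2, respectively, the log2 fold change changed sign for COL7A1 (0.30 and 0.30), LAMB2 (-0.086 and -0.089), ITGB6 (0.064 and 0.063) and COL1A1 (-0.52 and -0.54), and in edgeR also for COL28A1 (from 0.43 to -0.57, with 4 to 16 reads per library). With unmatched transcripts added to the gene listed before them COL4A1 was at 0.23. Leaving out 1 library turned the sign of members that were not called, within -0.061 to 0.032 for COL4A2, -0.22 to 0.10 for COL7A1, -0.0029 to 0.051 for ITGAV, -0.10 to 0.10 for ITGAE, -0.035 to 0.084 for ITGA2, -0.0082 to 0.12 for ITGB8, -0.094 to 0.032 for TIMP4, -0.30 to 0.054 for COL5A2, -0.00084 to 0.60 for COL6A3 and -0.016 to 0.065 for ITGA5. The cause of these changes was not tested. No sign of a called member turned in any alternative that gave an adjusted P value for it. For COL13A1 these were 14 of the 16, without DESeq2, and its sign in DESeq2 was not counted. ARMC5 was called lower in all 16 alternatives (log2 fold change -1.15 to -1.02). With the replicate block 15 members were called higher, LAMB2 and ITGB4 in addition, and 972 genes in all. Whether the replicate numbers pair the samples is not given in the sources used here. The following correlations cannot decide it with 3 libraries a group. Libraries of the same number correlated by 0.00655, 0.03 and 0.0586 in their deviations from the group means. Replicates 2 and 3 of shARMC5 correlated best with the shNT library of their own number, but replicate 1 with shNT replicate 2. Few reads limit the collagens most, where 29 of 44 genes could not be tested.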

Other observations

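The proportions of chains that assemble together were computed per library from TMM-normalized CPM and, per length, from TPM, after their separate values had been seen. An exact two-sided permutation test of the CPM ratios cannot go below 0.1 with 3 libraries a group. It gave 0.1 for the first 4 pairs here and 0.5 for ITGB4 over ITGA6, and the TPM ratios were not tested. For LAMB3 over LAMA3 the outcome was fixed, because every shARMC5 library was higher in LAMB3 and lower in LAMA3 than every shNT library. Since the separate values were known, these P values are a description and add no support to them. LAMB3 over LAMA3 was 1.19 to 1.44 in shARMC5 and 0.914 to 0.994 in shNT libraries in CPM, and 2.10 to 2.48 against 1.69 to 1.85 in TPM. LAMB1 over LAMC1 was 1.97 to 2.23 in shARMC5 and 1.72 to 1.91 in shNT libraries in CPM, but the groups overlapped in TPM (1.55 to 2.11 and 1.44 to 1.96). With the length offset the log2 fold change of LAMC1 moved from 0.05 to 0.24, beside 0.34 for LAMB1.

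Among receptors, ITGB5 over ITGAV was 1.20 to 1.23 in shARMC5 and 0.958 to 1.03 in shNT libraries in CPM, and 3.02 to 3.43 against 2.46 to 2.86 in TPM, so the groups overlapped on neither scale. ITGA3 over ITGB1 was 0.494 to 0.518 and 0.465 to 0.493 in CPM, which nearly touched, and overlapped in TPM (0.363 to 0.415 and 0.346 to 0.404). ITGB4 over ITGA6, the hemidesmosome pair, was 0.934 to 0.971 in shARMC5 libraries and 0.933 to 0.997 in shNT libraries in CPM, and the shARMC5 range lay within that of shNT. In TPM it was 0.992 to 1.07 in shARMC5 and 1.10 to 1.16 in shNT libraries, which did not overlap. These ratios are of RNA, not of protein, and LAMA3 was not called.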
